A study of Mus musculus with 10 samples.

Results

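The normal mouse testis at postnatal day 10 is described here from the 5 wild-type libraries of a series of 10, those labelled WT3, WT4, WT5, WT6 and WT9. They were taken by their labels alone, and no measured value chose them. The other 5 libraries of the series come from mice without FXRα, a bile acid receptor of the nuclear receptor family encoded by Nr1h4, and were not used here. Each wild-type library was made from the whole testis RNA of an individual mouse of a mixed background labelled 50% 129sv and 50% C57Bl, with a running number after the second name, and all were sequenced on 1 flowcell. The mice had no stated treatment. The libraries are called 3, 4, 5, 6 and 9 by the numbers in their labels, these numbers carry no order, and sets of 5 values are given in that sequence throughout.

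The mouse testis at this age is in the first wave of spermatogenesis. Germline stem cells and undifferentiated spermatogonia give rise to KIT-positive differentiating spermatogonia, which divide, and the most advanced of their progeny enter the meiotic prophase, in which chromosomes are broken, paired and joined by the synaptonemal complex. Sertoli cells, the somatic nurse cells of the tubules, are still immature and dividing, while Leydig cells, peritubular myoid cells, fibroblast-like stroma, vessels and macrophages lie outside the tubular epithelium. Since germ cells advance nearly in step in the first wave, transcripts of each later stage appear in a known sequence during these days.

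The libraries held 32330029 to 35006180 counts, so a gene at 5 CPM (the usual count unit relative to library size, here with TMM factors) had at least 162 counts and a counting error of about 7.87%. Of 30719 genes in the table, 15517 had a mean of at least 1 CPM and 12295 of at least 5 CPM. Mitochondrially encoded genes took 1.88 ± 0.0714% of counts (SD, n = 5) and the X chromosome 3.81 to 3.92%. Library 9 stood apart in Gm42418, a gene model known to collect reads of ribosomal RNA, with 0.269% of its counts against 0.102 to 0.140% in the other 4. Nr1h4 itself was near the detection limit, with 13 to 26 counts per library (0.401 to 0.767 CPM). No pair of libraries differed by as little as counting noise would give: a chi-square statistic per gene, which is near 1 for repeat counts of 1 library, ran from 5.24 (libraries 5 and 6) to 27.5 (libraries 3 and 6). Over 1 group there is nothing to test, so the values below are descriptions of spread, and no correlation over 5 libraries is given. Transcripts in whole testis were measured, so fewer cells of a type and less RNA per cell cannot be told apart.

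Library 3 stood apart from the other 4, which touches most results below. In a principal component analysis of log2 CPM over the 12295 genes, the first component held 62.6% of the variance. Its scores were 19.9, 5.9, -5.9, -10.4 and -9.6 in libraries 3, 4, 5, 6 and 9. Libraries 3 and 4 therefore lay on one side and 5, 6 and 9 on the other, with library 3 farthest out. The second component held 15.8% and had library 9 at its end (10.0, against -6.6 to 2.4 in the others). Values without library 3 are given beside list ranges and differences between lists that move with it.

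Markers of the testis label were present at high levels. Levels of different genes are compared only in TPM (the usual per-length unit, counts per kilobase of merged exons scaled to a fixed sum over nuclear genes). Among the 12 nuclear protein-coding genes with the highest mean TPM, excluding numbered gene models, were 3 Sertoli cell genes. These were Aard, at 3292 ± 77.6 TPM (SD, n = 5), Clu, which encodes the secreted chaperone clusterin, at 3121 ± 339 TPM, and the cystatin gene Cst12, at 1995 ± 219 TPM. The other 9 were the translation factors Eef1a1 (5227 ± 189 TPM) and Eef2, the ribosomal protein genes Rplp1, Rpl4 and Rps3a1, the chaperone Hsp90ab1, the matrix protein Sparc, the glutathione transferase Gstm1 and the X-linked Maged1. Eef1a1, Gstm1 and the ribosomal protein genes have near-identical copies in the genome, and Rpl4 overlaps small RNA genes, so their counts are uncertain.

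The sum over the 27 genes of a Sertoli cell list came to 18270 ± 1360 TPM (SD, n = 5), the most of the 21 gene lists examined. A list of 12 genes of interstitial stroma, mostly collagens and mesenchymal regulators, summed to 3524 ± 380 TPM, and 10 genes of peritubular and smooth muscle cells to 2497 ± 178 TPM. Steroidogenic Leydig cell genes summed to 1709 ± 250 TPM, macrophage genes to 365 ± 16.4 TPM and endothelial genes to 336 ± 24.7 TPM. Sums depend on which genes a list holds and are no measure of cell numbers.

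Among the germ cell lists, pan-germ and differentiating spermatogonial genes had the highest sums and haploid spermatid genes the lowest. The 14 pan-germ cell genes summed to 2444 ± 335 TPM and the 13 genes of differentiating spermatogonia to 1670 ± 280 TPM (SD, n = 5 each). Genes of chromosome axis and synapsis summed to 998 ± 254 TPM, those of meiotic entry and cohesin to 973 ± 328 TPM, undifferentiated spermatogonial genes to 600 ± 17.9 TPM and recombination genes to 452 ± 97.5 TPM. The 16 pachytene genes reached 161 ± 17.8 TPM and the 17 haploid spermatid genes 31.3 ± 1.76 TPM. Transcripts of postmeiotic cells were thus close to the floor: the sperm mitochondrial protein gene Smcp had no count in any library, and the protamine genes Prm1 and Prm2 had means of 1.15 and 0.147 TPM.

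**Figure D1:**
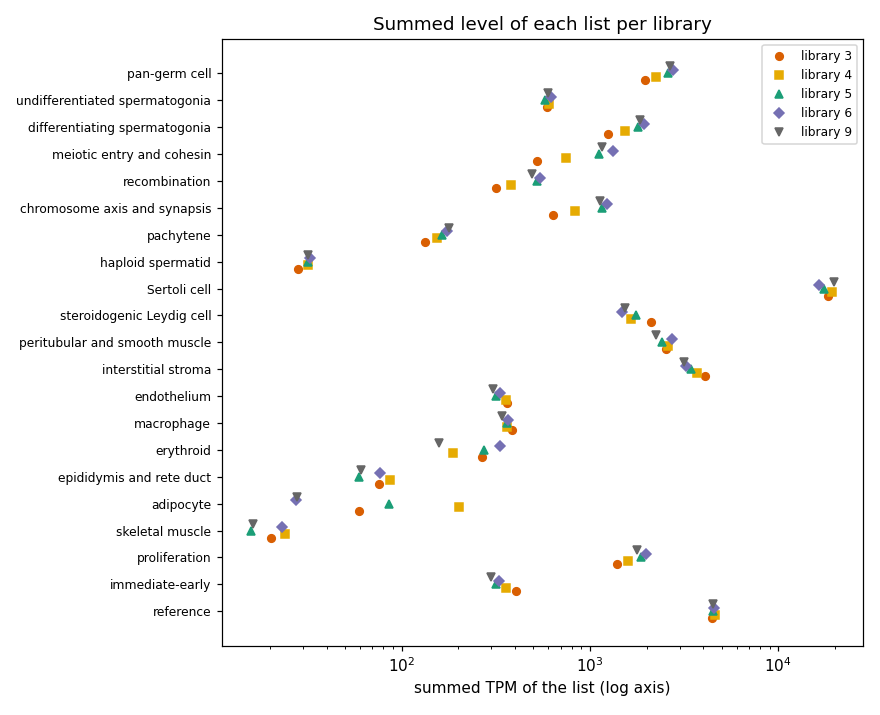
Summed TPM of each of 21 gene lists (log axis) in the 5 wild-type libraries, 1 point per library. The Sertoli cell list lies highest (16492 to 19824 TPM), the haploid spermatid and skeletal muscle lists lie lowest, and the adipocyte list spreads most, from 27.6 to 202 TPM.

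Most genes varied little between these mice. Over the 12295 genes the median coefficient of variation (CV, the SD as a percentage of the mean) was 6.67%, and 5.83% after the counting error was removed. The highest of the 5 libraries exceeded the lowest by 1.18-fold at the median gene. In 1015 genes, or 8.26%, the highest library was at least 1.5 times the lowest, and in 529 genes, or 4.30%, the CV beyond counting was at least 20%. Without library 3 these counts were 364 and 248, while leaving out another library gave 763 to 944 and 524 to 658. Genes were lowest in library 3 in 29.0% of cases and highest there in 37.3%, against 18.1% highest in library 6 and 24.2% lowest in library 6.

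Housekeeping genes gave the floor of this spread. The 9 reference genes, among them Actb (actin), Ppia (cyclophilin A) and Tbp (a general transcription factor), had a list value, the mean log2 CPM of the members, of 7.60 to 7.62 in the 5 libraries. Ppia was measured at 399, 401, 397, 404 and 402 CPM. None of the 9 reached a ratio of 1.5 between libraries, and their median CV beyond counting was 3.03%. The reference list value moved by 0.014 log2 under the TMM scaling used, as an average over members whose CV beyond counting reached up to 9.46%. It was not subtracted from the list values below.

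Pan-germ cell transcripts were lower in library 3 than in each other library, for every member. Dazl, an RNA-binding protein needed throughout the germ line, was measured at 387, 446, 573, 575 and 572 CPM, and the germ cell RNA helicase Ddx4 at 177, 192, 225, 236 and 223 CPM. Libraries 5, 6 and 9 lay together, library 4 between, and library 3 lowest. Rnf17, a component of germ granules, spread most in this list (65.9, 76.7, 96.4, 107 and 101 CPM). Genes of the piRNA pathway, which silences transposons in germ cells, ranged from 35.6 to 40.5 CPM in Tdrd5, 107 to 139 CPM in Mael, 195 to 265 CPM in Piwil2, 61.6 to 94.4 CPM in Tdrd9 and 107 to 164 CPM in Mov10l1. All 14 members were lowest in library 3, 3 of 14 (Rnf17, Tdrd9 and Mov10l1) had a ratio of at least 1.5 and none had a CV beyond counting of 20%. Over all genes these shares were 29.0%, 8.26% and 4.30%. The list value was 6.24, 6.41, 6.57, 6.65 and 6.61 log2 CPM, a range of 0.41, or 0.25 without library 3.

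Undifferentiated spermatogonial genes did not share this order. Zbtb16, a transcription factor of spermatogonial stem and progenitor cells, was nearly level at 83.9, 88.8, 85.9, 91.9 and 91.2 CPM. The pluripotency-associated RNA-binding protein Lin28a was also close to level, at 92.0, 99.4, 94.4, 106 and 100.1 CPM. Several genes tied to GDNF, a growth factor that maintains stem cells, were highest in library 3, and these were picked after their values were seen. Gfra1, the GDNF co-receptor, was measured at 28.7, 25.6, 24.4, 21.5 and 22.9 CPM, its signalling partner Ret at 52.8, 50.0, 47.8, 46.4 and 41.8 CPM, and the GDNF-responsive transcription factor Etv5 at 62.3, 52.7, 48.9, 40.7 and 42.4 CPM. Id4, another stem cell marker, was also highest in library 3, at 8.94 against 7.21 to 8.57 CPM. Lhx1, a further GDNF-responsive gene, was highest in library 4 instead (5.85, 6.05, 5.34, 5.28 and 4.66 CPM). Taf4b, a germ cell subunit of the general transcription machinery, followed the pan-germ order instead (65.9, 73.4, 89.1, 89.3 and 86.8 CPM).

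The value of the undifferentiated list therefore hardly moved, at 3.79, 3.84, 3.70, 3.77 and 3.75 log2 CPM, a range of 0.14, or 0.08 without library 4. Of the 15 members with at least 5 CPM, 5 were lowest in library 3 and 6 highest there, against 29.0% and 37.3% of all genes. In 7 library 6 was highest, against 18.1%, and in 6 library 3 was highest with library 4 next, against 22.0%. Their median CV beyond counting was 8.86%, against 5.83% over all genes. The level list value thus averages members that moved in different directions. Egr4 and Etv5, with 18.9 to 30.0 and 40.7 to 62.3 CPM, were the 2 members with a ratio of at least 1.5. Nanos2, which marks stem cells, was measured at only 1.18 to 1.44 CPM. Neurog3 (4.85 to 5.84 CPM) overlaps Fam241b and is uncertain.

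Genes of differentiating spermatogonia were lowest in library 3 in 13 of 13 cases, against 29.0% of all genes. Kit, the receptor that marks the transition, was measured at 105, 134, 136, 159 and 147 CPM. The transcription factor genes Sohlh1 (50.1, 58.1, 53.5, 62.7 and 60.4 CPM) and Sohlh2 (36.7, 41.0, 44.3, 47.0 and 49.2 CPM) spread less. The CV beyond counting was largest, the reason they are named, in the following members: Dmrtb1, which acts at the exit from the mitotic divisions, stood at 27.4, 42.3, 51.6, 57.8 and 55.5 CPM and the X-linked homeobox gene Esx1 at 15.7, 28.6, 43.0, 44.8 and 41.6 CPM. In both, library 3 was lowest and library 4 second lowest. Of the 13 members, 7 had a ratio of at least 1.5, against 8.26% of all genes. In 12 library 3 was lowest and library 4 next, an order found in 18.7% of all genes. In log2 CPM the list stood at 5.46, 5.78, 6.01, 6.10 and 6.05, with a range of 0.64, or 0.32 without library 3.

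Meiotic entry and cohesin genes spread more than any other germ cell list. Stra8, the retinoic acid-induced regulator of meiotic entry (chr6:34920163-34939344 on GRCm38), was measured at 61.5, 74.0, 112, 130 and 126 CPM. Its partner gene Gm4969, also known as Meiosin, was measured at 11.8, 27.8, 63.1, 62.6 and 47.9 CPM. Libraries 3 and 4 lay below libraries 5, 6 and 9 for both, and Gm4969 was 5.31-fold higher in library 6 than in library 3. Meioc, which with Ythdc2 turns over mitotic transcripts at meiotic entry, was measured at 29.4, 57.7, 102, 107 and 89.9 CPM, and Ythdc2 at 44.8, 54.4, 70.9, 75.2 and 67.5 CPM. Prdm9, the histone methyltransferase that places recombination hotspots, was measured at 9.42, 16.1, 32.1, 32.3 and 24.8 CPM. The order of the libraries was thus similar in an entry regulator, an RNA regulator and a chromatin enzyme.

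Meiotic cohesin subunits, which hold sister chromatids in prophase, showed it as well. Smc1b was measured at 66.2, 94.9, 144, 192 and 158 CPM and Stag3 at 134, 187, 241, 245 and 227 CPM. Of the kleisin subunits, Rec8 was measured at 18.5, 26.4, 33.7, 37.8 and 41.0 CPM and Rad21l at 5.01, 6.68, 13.2, 14.9 and 10.5 CPM. Library 9 was highest for Rec8 alone among the 11 genes. Tex15, needed for the repair of meiotic breaks, was measured at 169, 243, 323, 468 and 410 CPM, and Mei1, needed to make them, at 12.7, 19.4, 31.9, 35.3 and 29.7 CPM.

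All 11 members had a ratio of at least 1.5 and a CV beyond counting of at least 20%, against 8.26% and 4.30% of all genes. In 11 of 11 library 3 was lowest and library 4 second lowest, against 18.7% of all genes. Library 6 was highest in 9 of 11, against 18.1%. Libraries 3 and 6 were chosen for counting because earlier results of these data gave them a low and a high meiotic value. The counts by library are therefore description and no independent support. The list value was 4.97, 5.54, 6.20, 6.36 and 6.14 log2 CPM, a range of 1.39 or 2.62-fold. Without library 3 the range was 0.82, set by library 4. The median CV beyond counting was 37.6%, from 20.02% (Ythdc2) to 52.6% (Gm4969). The ratio of library 6 to library 3 had a median of 2.79 in this list and of 0.976 over all genes.

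**Figure D2:**
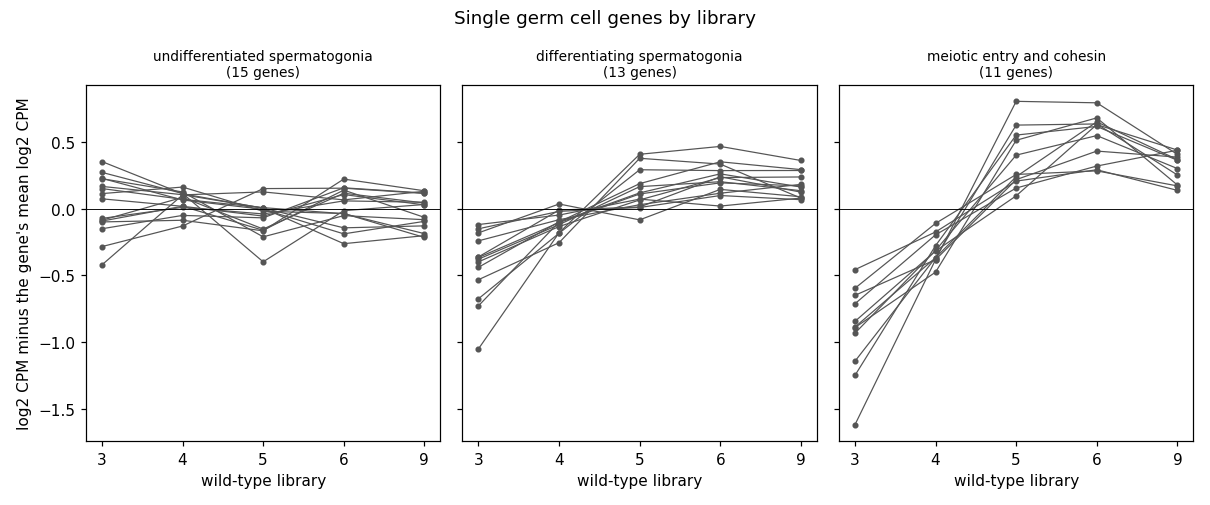
Deviation of each gene's log2 CPM from its mean over the 5 wild-type libraries, 1 line per gene with a mean of at least 5 CPM, for 3 germ cell lists. Lines join the values of a gene and the libraries have no order. Undifferentiated genes show no shared direction, while all 11 meiotic entry and cohesin genes lie lowest in library 3 and second lowest in library 4.

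Recombination genes followed the same order, with exceptions. Dmc1, the meiotic strand-exchange protein, was measured at 15.9, 23.0, 34.3, 36.3 and 32.0 CPM. Spo11, the enzyme that breaks the chromosomes, was low at 2.79, 4.65, 6.76, 6.54 and 5.40 CPM, and its partner gene Gm960 (Top6bl) stood at 5.85, 8.68, 12.0, 11.5 and 11.2 CPM. Ccdc36 (Iho1), an organiser of break formation, was measured at 15.0, 20.3, 33.4, 31.2 and 27.1 CPM. Libraries 5 and 6 were close together in these genes, and library 9 a little below them. Among later acting factors, the helicase gene Hfm1 was measured at 10.2, 16.8, 24.8, 30.8 and 21.5 CPM and the crossover factor Msh5 at 9.54, 13.1, 20.6, 21.4 and 15.3 CPM. Tex11, the most abundant of the list by TPM (148 ± 36.4, SD, n = 5), was measured at 79.4, 101, 139, 146 and 136 CPM.

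The exceptions lay at 3 of the 15 members with at least 5 CPM. Mnd1, whose product loads DMC1, had no spread beyond counting (5.78 to 6.69 CPM), Mlh3, a mismatch repair gene also used in somatic cells, stood at 41.0 to 45.4 CPM, and Psmc3ip, the partner of Mnd1, at 11.1 to 16.1 CPM with its lowest value in library 4. Psmc3ip overlaps Mlx and is uncertain. Of the 15, 11 had a ratio of at least 1.5 and 12 were lowest in library 3, against 8.26% and 29.0% of all genes. In log2 CPM the list stood at 3.06, 3.32, 3.73, 3.77 and 3.62, a range of 0.705, or 0.45 without library 3. Meiob, which coats single-stranded DNA at breaks, was below the 5 CPM level but spread far, at 0.570, 1.11, 3.15, 3.40 and 1.86 CPM.

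Genes of the chromosome axis and synaptonemal complex were lowest in library 3 in 12 of 12 cases, against 29.0% of all genes. Sycp1, the transverse filament, was measured at 83.0, 120, 165, 169 and 164 CPM. The axial element genes Sycp2 and Sycp3 were measured at 60.9, 82.7, 134, 155 and 125 CPM and at 23.6, 31.3, 44.9, 47.9 and 44.9 CPM, where Sycp3 overlaps Chpt1 and is uncertain. Hormad1, an axis protein of unsynapsed chromosomes, was measured at 12.5, 21.3, 33.1, 36.2 and 32.0 CPM. Libraries 5, 6 and 9 again lay together above libraries 4 and 3. Terb1, which ties telomeres to the nuclear envelope, spread most, at 3.72, 4.54, 11.2, 12.5 and 8.06 CPM. Trip13, an ATPase that removes HORMA proteins and also serves the mitotic checkpoint, spread least, at 42.2, 47.5, 54.3, 51.4 and 53.2 CPM. A ratio of at least 1.5 was found in 11 of 12, against 8.26% of all genes. The list value was 4.07, 4.38, 4.91, 4.98 and 4.84 log2 CPM, a range of 0.91, or 0.60 without library 3.

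Over the 3 meiotic lists together, 38 of 43 genes had at least 5 CPM. Of these, 33 had a ratio of at least 1.5, 35 had library 3 lowest with library 4 next, and 25 were highest in library 6. Over all genes these shares were 8.26%, 18.7% and 18.1%. All 11 entry genes were lowest in library 3 under each of the 4 scalings tried, while over all genes that share ran from 29.0% to 35.1%. The largest shift of library 3 between scalings was -0.024 log2 at the median gene (library totals). That is too small to change the order of genes spread this far, so the scalings give no further support.

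The promoters of these genes were read for 2 short motifs because the members moved together. The motifs were CACGTG, an E-box, and GGCGGGAA or its reverse complement TTCCCGCC, a form of the E2F site, both on both strands in the 250 bases before the RefSeq start of each gene. The first has no overlap with the second. Of 27025 promoters in the RefSeq table for GRCm38.p6, 6.05% held CACGTG, 1.88% the E2F form and 0.167% both. For genes averaging at least 1 CPM these shares were 8.29%, 3.49% and 0.309%. CACGTG was found in 6 of 12 pan-germ promoters, 5 of 12 axis and synapsis promoters and 3 of 13 of differentiating spermatogonia. It was found in 1 of 8 of meiotic entry and cohesin, 1 of 14 of recombination and 0 of 15 of undifferentiated spermatogonia. Both motifs stood together in Ddx4, Hormad1 and Tex12 (a central element protein), and CACGTG alone stood at several places in Sohlh1 and Sycp3. Neither was found in the windows of Stra8 and Meioc. These windows lie inside the GENCODE intervals of the genes, so sequence before the GENCODE starts was not read. Other starts of a gene were not read either. Part of the Ddx4 window also lies inside the GENCODE interval of the gene, which reaches to position 112652475 on the minus strand. Both Ddx4 matches fall in that part. The 3 promoters with both motifs, and Sohlh1 and Sycp3 as examples with CACGTG alone, are printed on the gene's strand, 5′ to 3′, with the matches in capitals.
Ddx4 (chr13:112652311-112652560, minus strand): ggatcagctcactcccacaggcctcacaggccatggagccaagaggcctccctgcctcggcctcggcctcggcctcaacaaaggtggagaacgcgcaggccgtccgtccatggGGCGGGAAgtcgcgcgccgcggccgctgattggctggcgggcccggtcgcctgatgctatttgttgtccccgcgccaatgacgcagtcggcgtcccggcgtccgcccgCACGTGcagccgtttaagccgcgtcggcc
Hormad1 (chr3:95559427-95559676, plus strand): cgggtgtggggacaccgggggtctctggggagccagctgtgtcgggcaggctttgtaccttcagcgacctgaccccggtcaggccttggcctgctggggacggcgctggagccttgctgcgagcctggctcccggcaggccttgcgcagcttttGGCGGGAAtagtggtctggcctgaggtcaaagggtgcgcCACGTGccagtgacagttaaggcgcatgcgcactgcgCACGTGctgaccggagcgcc
Tex12 (chr9:50561269-50561518, minus strand): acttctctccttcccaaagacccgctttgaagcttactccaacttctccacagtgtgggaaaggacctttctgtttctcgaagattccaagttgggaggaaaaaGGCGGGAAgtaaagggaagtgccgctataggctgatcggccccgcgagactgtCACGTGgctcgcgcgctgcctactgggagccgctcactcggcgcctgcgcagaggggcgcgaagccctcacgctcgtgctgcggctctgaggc
Sycp3 (chr10:88459337-88459586, plus strand): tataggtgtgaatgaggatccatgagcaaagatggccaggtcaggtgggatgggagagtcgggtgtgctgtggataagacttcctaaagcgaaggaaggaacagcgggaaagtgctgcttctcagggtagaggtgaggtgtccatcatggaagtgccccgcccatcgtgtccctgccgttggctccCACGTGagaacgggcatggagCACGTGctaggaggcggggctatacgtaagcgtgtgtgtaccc
Sohlh1 (chr2:25847249-25847498, minus strand): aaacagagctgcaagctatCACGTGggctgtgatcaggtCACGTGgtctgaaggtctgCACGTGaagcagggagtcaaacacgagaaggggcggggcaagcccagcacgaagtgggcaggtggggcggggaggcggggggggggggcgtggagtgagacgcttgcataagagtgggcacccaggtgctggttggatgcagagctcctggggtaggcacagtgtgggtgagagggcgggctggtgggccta
Counted back from the start, with -1 as the last base printed, the E2F form began at -137 in Ddx4, -96 in Hormad1 and -146 in Tex12. CACGTG began at -29 in Ddx4, -57 and -20 in Hormad1, -93 in Tex12, -64 and -43 in Sycp3, and -231, -211 and -192 in Sohlh1. Tex12 was measured at 7.95, 12.2, 15.5, 17.1 and 16.3 CPM. The Ddx4 gene, with both motifs, spread 1.34-fold, and Hormad1, with both, 2.89-fold. A match describes letters and not a bound site.

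Later germ cell programmes were low, and their list values had narrower ranges than those of the 3 meiotic lists. Of 16 pachytene genes, 5 reached 5 CPM. The median CV beyond counting of these 5 was 12.5%, against 11.2% in pan-germ genes and 5.83% over all genes. Hspa2, the germ cell HSP70, was measured at 31.7, 36.2, 40.8, 44.3 and 41.5 CPM, and Mybl1, the master regulator of pachytene transcription, at 34.9, 33.8, 35.5, 39.2 and 37.8 CPM. Mybl1 was lowest in library 4, the only 1 of the 5 not lowest in library 3. The chaperone gene Clgn spread most (5.82, 9.14, 9.54, 11.0 and 8.44 CPM), and Meig1 was highest in library 9 (7.64, against 5.04 to 5.997 CPM). Piwil1, the pachytene PIWI protein, was at 6.36 to 8.29 CPM. The list value was 3.01, 3.20, 3.18, 3.28 and 3.30 log2 CPM, a range of 0.30, or 0.12 without library 3. Genes at the end of the pachytene stage were at trace levels, with the testis-specific glycolytic genes Pgk2 and Ldhc at means of 0.112 and 0.618 CPM.

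No haploid spermatid gene reached 5 CPM, and 4 of 17 reached 1 CPM. The highest by TPM were Gapdhs (8.23 ± 0.478 TPM, SD, n = 5), Tssk6 (4.41 ± 0.753 TPM) and Tnp1 (4.30 ± 0.851 TPM), a sperm glycolytic enzyme, a spermatid kinase and a transition protein. Gapdhs overlaps Tmem147os, and Tssk6 overlaps Ndufa13 and Yjefn3, so both are uncertain. Tnp1 had no spread beyond counting. The list value ran from 1.36 (library 3) to 1.57 (library 6) log2 CPM.

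The undifferentiated list, used next as a comparator, averages members that moved in different directions. Set against the undifferentiated list of the same library, the meiotic entry list stood 1.18, 1.70, 2.50, 2.58 and 2.40 log2 higher. This within-library difference had a range of 1.40, or 2.65-fold, between libraries 3 and 6, and of 0.88 without library 3. For the differentiating list the same difference was 1.67, 1.94, 2.32, 2.33 and 2.30 log2, a range of 0.66, or 0.39 without library 3. Set against the Sertoli list, the pan-germ list gave differences of -0.96, -0.82, -0.49, -0.34 and -0.58 log2 and the entry list of -2.23, -1.68, -0.86, -0.64 and -1.05 log2. Without library 3 the ranges of these differences went from 0.62 to 0.48 for the pan-germ list and from 1.59 to 1.04 for the entry list. Library 3 was at one end and library 6 at the other in each of these comparisons, and library 4 was always nearest to library 3. The labels give all mice the same age in days, and hour of birth, litter and body weight are not given by the labels, so their part was not tested.

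**Figure D3:**
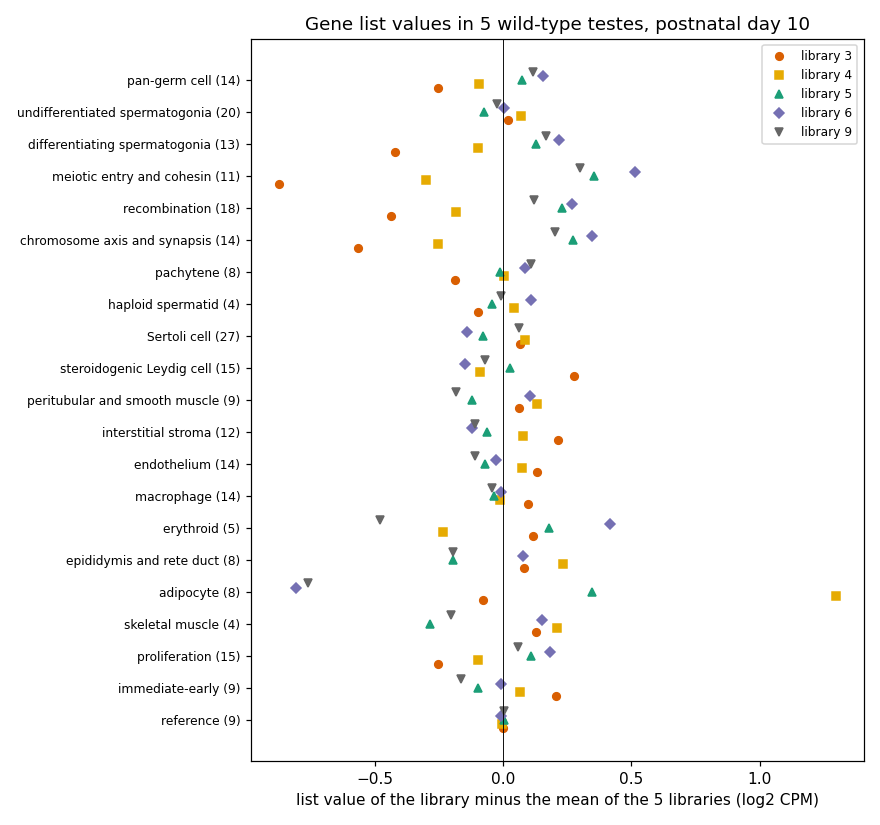
Value of each gene list in each wild-type library as a difference from the mean of the 5 libraries (log2 CPM), with the number of members used in brackets. Library 3 lies left of the others in the pan-germ, differentiating, 3 meiotic, pachytene, haploid and proliferation lists. It lies right of them in the stroma, Leydig, endothelium, macrophage and immediate-early lists. The reference list has no visible spread, and the adipocyte list has library 4 far to the right.

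The Sertoli list value had a narrower range than the pan-germ, differentiating and meiotic list values, but its genes had no single order. Their median CV beyond counting was 11.7%, against 11.2% in pan-germ genes and 5.83% over all genes. The values of Clu were 2528, 2636, 2177, 2059 and 2668 CPM, so libraries 5 and 6 were low and library 9 was not. The inhibin alpha gene Inha (485, 505, 452, 390 and 544 CPM), Cst12 (285, 318, 285, 248 and 333 CPM) and the tight junction gene Cldn11 (327, 353, 327, 327 and 403 CPM) were likewise highest in library 9. Others were highest in library 3, among them Sox9, a transcription factor of Sertoli cell fate (229, 213, 178, 175 and 188 CPM), Gata4 (371, 290, 270, 262 and 252 CPM) and the KIT ligand gene Kitl (424, 367, 347, 316 and 333 CPM). Of the 26 members with at least 5 CPM, 12 were highest in library 3 and 11 in library 9, against 37.3% and 16.7% of all genes, and 16 were lowest in library 6, against 24.2%.

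The Sertoli list value was 7.20, 7.22, 7.06, 6.995 and 7.20 log2 CPM, a range of 0.23. Aard varied least, at 1027, 1013, 971, 956 and 1023 CPM. Amh, Gdnf and Fshr spread more. Amh, the anti-Müllerian hormone, which falls as Sertoli cells mature, was measured at 307, 314, 201, 183 and 238 CPM. Gdnf, the ligand for GFRA1, was measured at 38.6, 32.6, 22.3, 21.2 and 20.95 CPM, and Fshr, the follicle-stimulating hormone receptor, at 36.9, 28.0, 24.1, 21.8 and 21.3 CPM. In all 3 genes libraries 3 and 4 lay above libraries 5, 6 and 9. Rhox5, an androgen-regulated homeobox gene, and Gata1 went the other way at library 3: Rhox5 was measured at 3.27, 5.60, 5.65, 5.51 and 9.68 CPM and Gata1 at 30.7, 39.6, 38.8, 44.4 and 48.2 CPM. These 5 of 26 were the members with a ratio of at least 1.5, against 8.26% of all genes. Sox8 and Dhh overlap 2810468N07Rik and Rhebl1 and are uncertain.

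The Sertoli cell ligand gene Gdnf and the spermatogonial genes Gfra1, Ret and Etv5 were each higher in libraries 3 and 4 than in the other 3. Kit ligand and its receptor differed in order: Kitl was highest and Kit lowest in library 3. These genes were picked out after their values were seen. Of the 15 undifferentiated members with at least 5 CPM, 6 were highest in library 3 with library 4 next, against 22.0% of all genes. Another 7 were highest in library 6, against 18.1%.

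Steroidogenic Leydig cell genes were highest in library 3 in 11 of 14 cases, against 37.3% of all genes. Cyp17a1, the enzyme that makes androgen precursors, was measured at 145, 50.4, 108, 69.7 and 70.6 CPM, and Star, which delivers cholesterol to mitochondria, at 73.1, 32.3, 66.1, 32.6 and 44.5 CPM. Libraries 3 and 5 were high and library 4 low for both, which is not the order of the germ cell genes. Hsd17b3, the last enzyme of testosterone synthesis, was measured at 110, 78.7, 105, 67.0 and 55.9 CPM, again with libraries 3 and 5 high. Hsd3b1 was measured at 226, 188, 151, 141 and 149 CPM, with library 5 no longer high, and Cyp11a1, which cleaves the cholesterol side chain, at 106, 76.6, 99.1, 94.7 and 94.9 CPM. Cyp11a1 overlaps Gm17322 and is uncertain.

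Leydig cell genes also expressed in other cells were steadier. Nr5a1, the steroidogenic regulator also found in Sertoli cells, was measured at 264, 241, 209, 204 and 210 CPM, and the lipoprotein receptor gene Scarb1 at 212, 225, 253, 212 and 265 CPM. Insl3, the peptide hormone of Leydig cells, was low at 7.41 to 13.6 CPM and overlaps Jak3. The luteinising hormone receptor gene Lhcgr stood at 7.10 to 12.5 CPM, and Hsd3b6, an enzyme of adult Leydig cells, at 0.300 to 1.89 CPM. Of 14 members with at least 5 CPM, 8 had a ratio of at least 1.5 and 8 had a CV beyond counting of at least 20%. Over all genes these shares were 8.26% and 4.30%. In log2 CPM the list stood at 5.49, 5.13, 5.24, 5.07 and 5.14, a range of 0.43, or 0.16 without library 3.

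Interstitial stroma was highest in library 3 in 11 of 12 genes, against 37.3% of all genes. The fibrillar collagen gene Col3a1 was measured at 2759, 2436, 2200, 2004 and 1937 CPM, Col1a1 at 1292, 1215, 1140, 1083 and 1004 CPM and the proteoglycan gene Dcn at 497, 432, 396, 342 and 375 CPM. Library 3 was followed by library 4 in 9 of 12 genes, an order found in 22.0% of all genes. Lum was the only member with a ratio of at least 1.5 (53.5, 47.1, 34.6, 32.4 and 38.5 CPM), while the hedgehog receptor gene Ptch1 was near level at 143 to 159 CPM. The list value was 8.09, 7.95, 7.81, 7.76 and 7.77 log2 CPM, a range of 0.34, or 0.19 without library 3. Set against the Sertoli list, stroma stood 0.89, 0.73, 0.75, 0.76 and 0.57 log2 higher, a range of 0.32, or 0.19 without library 3 and 0.16 without library 9.

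Peritubular and smooth muscle genes had another order, with library 9 lowest in 7 of 9 genes, against 22.5% of all genes. Acta2, the smooth muscle actin, was measured at 493, 483, 451, 506 and 432 CPM and Myh11, its myosin, at 374, 379, 357, 379 and 321 CPM. Actg2 spread most (13.3, 18.1, 11.3, 17.8 and 10.1 CPM), with libraries 4 and 6 high, and Cnn1 had the same 2 libraries high (22.9, 30.7, 21.1, 28.9 and 21.6 CPM). Tagln (103 to 135 CPM) overlaps Pcsk7 and is uncertain. In log2 CPM the list stood at 6.33, 6.40, 6.15, 6.37 and 6.08, a range of 0.31.

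Vessel and immune genes were among the steadiest of the lists examined. Their median CVs beyond counting, 8.28% and 7.38%, were still above the 5.83% over all genes. Library 3 was highest in 8 of 13 endothelial and 7 of 11 macrophage genes, against 37.3% of all genes. The endothelial list value was 4.23, 4.17, 4.03, 4.07 and 3.99 log2 CPM. Cdh5, the endothelial cadherin, was measured at 93.2, 90.4, 78.4, 83.8 and 76.9 CPM, and Robo4, a vascular guidance receptor, was the only 1 of 13 members with a ratio of at least 1.5 (11.2 to 18.3 CPM). The macrophage list value was 3.34 in library 3 and 3.20 to 3.23 in the other 4. Complement C1qa was at 9.85 to 10.5 CPM and the macrophage receptor Csf1r at 19.0 to 23.3 CPM, where Csf1r overlaps Hmgxb3. None of 11 macrophage genes with at least 5 CPM had a ratio of 1.5, and their range was 0.14 log2, or 0.03 without library 3.

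**Figure D4:**
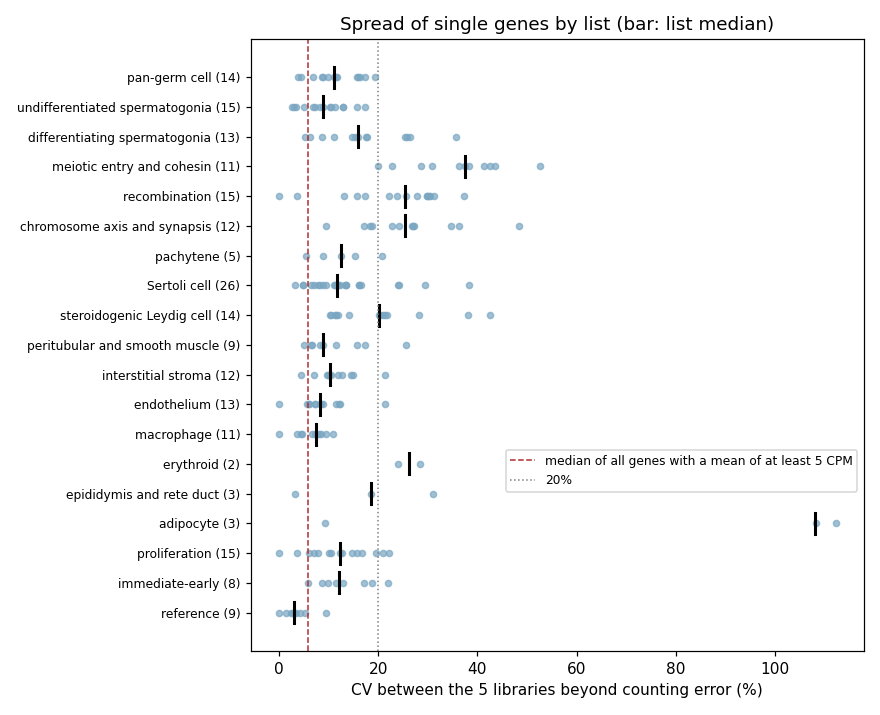
CV between the 5 wild-type libraries beyond counting error for single genes averaging at least 5 CPM, by list, with the list median as a bar and the median of all such genes (5.83%) as a dashed line. Meiotic entry and cohesin genes have a median of 37.6%, Leydig cell genes of 20.2%, Sertoli cell genes of 11.7% and reference genes of 3.03%.

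Proliferation genes followed the germ cell order. Top2a, a topoisomerase of dividing cells, was measured at 314, 356, 464, 471 and 417 CPM and Mki67 at 289, 324, 388, 423 and 371 CPM. Cenpf, a kinetochore protein, spread most, at 224, 263, 304, 395 and 351 CPM. Cdk1, the mitotic kinase, was level at 58.7 to 61.6 CPM, with no spread beyond counting. It was the exception among 15 members, 14 of which were lowest in library 3, against 29.0% of all genes. The list value was 6.59, 6.75, 6.95, 7.03 and 6.90 log2 CPM, a range of 0.44, or 0.28 without library 3. Both germ cells and Sertoli cells divide at this age, and their shares in these transcripts cannot be told apart.

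Immediate-early genes, which respond within minutes to handling and stress of tissue, were highest in library 3 in 6 of 8 cases. Over all genes the share highest there was 37.3%. Egr1 was measured at 51.6, 45.8, 40.2, 39.8 and 30.4 CPM and Nr4a1 at 43.5, 34.95, 29.3, 27.0 and 26.4 CPM. Fos had its highest value in library 6 and ranged from 4.07 to 5.69 CPM. Jun (77.8 to 109 CPM) overlaps Junos and is uncertain. In log2 CPM the list stood at 4.13, 3.99, 3.83, 3.92 and 3.76, a range of 0.37, or 0.23 without library 3. The part of these transcripts in the position of library 3 was not tested.

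Markers of tissue next to the testis differed between the libraries in other orders than the germ cell genes. Fat genes were highest in library 4. The carbonic anhydrase gene Car3 was measured at 13.1, 48.6, 16.0, 2.67 and 3.19 CPM, the fatty acid carrier gene Fabp4 at 9.75, 41.3, 15.1, 2.99 and 3.60 CPM, and the adipocyte hormone gene Adipoq at 2.19, 7.11, 3.21, 0.498 and 0.502 CPM. Libraries 6 and 9 were low in all 3. Plin1, a protein of lipid droplets, was near level at 12.4 to 16.0 CPM. The adipocyte list value was 2.16, 3.54, 2.59, 1.44 and 1.48 log2 CPM, a range of 2.101, or 1.21 without library 4. The fat genes summed to 27.6 to 202 TPM.

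Globin genes, which mark blood in the tissue, were lowest in library 9. Hbb-bs was measured at 30.4, 18.9, 28.5, 35.01 and 17.8 CPM, and Hba-a1 at 4.68, 4.17, 5.25, 6.95 and 2.77 CPM. The globin genes have near-identical copies, so single members are uncertain, and the list value was 2.98, 2.63, 3.04, 3.28 and 2.38 log2 CPM. Of the duct genes, the kidney-type cadherin Cdh16, also of the epididymal and rete ducts, was measured at 11.5, 15.3, 11.0, 12.2 and 5.64 CPM and the keratin gene Krt8 at 9.51, 10.2, 5.93, 8.21 and 9.38 CPM. Lcn5, an epididymal lipocalin, had no count in any library. Skeletal muscle genes were at trace levels, with Acta1 at 1.92, 3.23, 0.0617, 2.81 and 0.177 CPM and the creatine kinase gene Ckm at 0.309 to 0.690 CPM. The part of adjoining tissue in the other lists was not tested.

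The widest spread of single genes was not in the germ cell lists. By CV beyond counting, the 12 protein-coding genes with the largest spread, excluding numbered models and pseudogenes, were Car3, Fabp4, Slc15a2, Capn11, Scd1, Mpeg1, Eps8l1, Dsp, Chrna4, Mybpc3, Ky and Adamts16. Scd1, the stearoyl-CoA desaturase of lipid synthesis, was measured at 23.9, 79.6, 41.0, 18.9 and 18.0 CPM, highest in library 4 like the fat genes. Mpeg1, the macrophage perforin-2 gene, was measured at 64.7, 35.01, 23.8, 25.8 and 109 CPM, although the macrophage list hardly moved. Capn11, a testis calpain, had 423, 181, 1, 245 and 178 counts, with a lone count in library 5.

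Of the 12, 7 were highest in library 3, Capn11 among them, against 45.2% of the 1015 genes with a ratio of at least 1.5. The peptide transporter gene Slc15a2 was measured at 39.9, 9.62, 7.01, 6.89 and 14.1 CPM, the desmosome gene Dsp at 28.3, 7.57, 9.20, 11.2 and 7.52 CPM and the myosin-binding protein gene Mybpc3 at 19.3, 7.91, 6.30, 7.65 and 5.19 CPM. Eps8l1 stood at 10.6, 2.77, 1.08, 6.83 and 5.19 CPM, Ky at 11.9, 5.54, 4.44, 5.22 and 2.24 CPM and the metalloprotease gene Adamts16 at 13.4, 6.34, 5.19, 4.87 and 2.95 CPM. Chrna4, a nicotinic receptor subunit, was set apart by library 5 instead (4.802, 6.77, 17.6, 5.10 and 5.87 CPM).

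**Figure D5:**
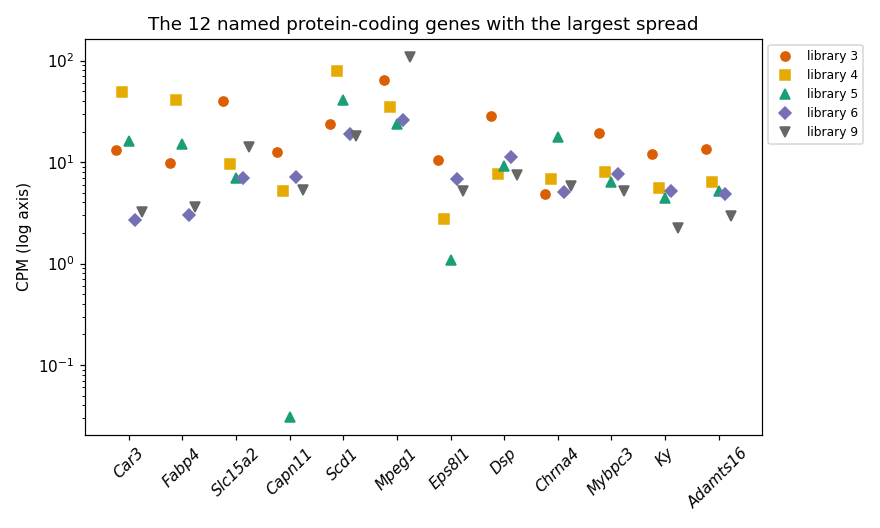
CPM (log axis) of the 12 named protein-coding genes with the largest CV beyond counting, 1 point per wild-type library. Car3, Fabp4 and Scd1 are highest in library 4, Slc15a2, Dsp and Mybpc3 in library 3, and Capn11 has a lone count (0.0309 CPM) in library 5.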

How the data were processed

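Whole testis RNA of individual mice was sequenced after Trizol extraction and Illumina TruSeq library preparation, per the labels' protocols. Raw counts for each gene, as made and deposited by the authors, were used, and the count columns of the 5 wild-type libraries alone were read. Per the submitters' processing notes, FastQC 0.10.1, CASAVA, Bowtie, TopHat2 2.0.10, Bowtie2 2.1.0 and mm10 were named, without their roles. What counted the reads, on which annotation, whether by strand and with what rule for multiply aligned reads is not given in the sources used here. Normalized columns that the authors deposited and the 5 libraries without FXRα were not used here, and 0 columns belonged to other samples.

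Counts were scaled with TMM factors (edgeR 4.0.16, R 4.3.3) within the 5 libraries and summarised with pandas 2.3.3 and numpy 2.4.6. A list value is the mean of log2(CPM + 1) over members with a mean of at least 1 CPM. Spread was taken over genes averaging at least 5 CPM, as the ratio of the highest to the lowest library (threshold 1.5) and as a CV beyond counting, the square root of the squared CV minus 1 over the mean count (threshold 20%). TPM used merged exons of at least 200 bases from GENCODE M21, whose build GRCm38 is that of mm10. By Ensembl identifier 30212 genes matched, and the 507 others held 0.195% of counts. The labels' genotype set the group. The ratio and the CV beyond counting were computed on simulated counts of known spread, and the other steps were not tested in this way. Intervals between libraries are SDs over 5 mice, and no test was made with 1 group.

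The members and the 21 lists (285 entries, 283 matched, where counts of Ankrd31 and Catsper1 were not analysed here) were chosen with earlier results of these data known. Named genes were the 3 members of each list with the highest mean TPM and the 2 with the largest CV beyond counting, the 12 protein-coding genes with the largest CV, the 12 nuclear ones with the highest TPM, and further members to complete a count or a stage order. Alternatives were other scalings (library totals, upper-quartile factors, DESeq2 1.42.0 size factors), filters, pseudocount, transcript length, edgeR dispersions and each library left out. Promoters were those of RefSeq on GRCm38.p6, matched by symbol.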

Additional observations from a re-analysis of the deposited data

Results flagged for a closer look

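Of 110 named genes and 21 lists, 7 had a library far from the other 4, its gap to the nearest being more than 0.71 of the whole range. With 5 libraries chance gives such a gap in about 1 in 20 cases, a rate that does not apply to Slc15a2, Dsp, Mybpc3 and Chrna4, which were named for their large spread over the same values. Other named genes were also chosen for their spread, and list values are averages over listed genes. The number of 7 can therefore not be set against that rate and is no result in itself. In 6 of the 7 the library was number 3, at the high end. Its macrophage list value was 3.335 log2 CPM. In library 3 Slc15a2 reached 39.9 CPM, against 6.89 to 14.1 in the others, Dsp 28.3 CPM, against 7.52 to 11.2, and Mybpc3 19.3 CPM, against 5.19 to 7.91. Gstm1, a glutathione transferase with near-identical family members, reached 849 CPM there, against 666 to 698, and Rpl13a, a ribosomal protein gene with many processed copies that overlaps Gm45713, 691 CPM, against 663 to 670. The remaining gene was Chrna4, at 17.6 CPM in library 5 and 4.802 to 6.77 CPM in the others.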

How the results depend on the processing

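Of 105 list ranges under other scalings, pseudocount or filter, 100 moved by less than 1 SD between libraries. The haploid range of 0.21 was 0.32 with a pseudocount of 0.1 and 0.09 with no filter on the mean, the skeletal muscle range was 1.10 with a pseudocount of 0.1, and the reference range of 0.014 was 0.03 with library totals and 0.02 with DESeq2 size factors. With one library left out, ranges ran from 0.08 to 0.14 (undifferentiated), 0.32 to 0.66 (differentiating), 0.12 to 0.31 (pachytene), 0.16 to 0.41 (Leydig), 0.03 to 0.14 (macrophage), 1.21 to 2.1 (adipocyte) and 0.01 to 0.02 (reference). Of 40 ranges of the difference between lists with one library left out, chosen after seeing the data, 38 moved by less than 1 SD; that of stroma minus Sertoli went from 0.32 to 0.19 without library 3 and 0.16 without library 9. The 1015 genes with a ratio of at least 1.5 were 2593 at 1 CPM and 8759 at 1 count in every library, since more low genes enter, and 364 to 944 with one library left out. The 529 with a CV of at least 20% were 1205, 3363 and 248 to 658 in the same settings, and 266 with edgeR's dispersions, which are drawn towards a trend. The 3568 genes lowest in library 3 were 5847, and the 2229 highest in library 6 were 4141, at 1 count in every library. More genes enter there too, so these counts are not shares of the same set. With the longest transcript in place of merged exons, 12 summed levels moved: pan-germ 2099, undifferentiated 497, differentiating 1383, pachytene 137, haploid 26.4, Sertoli 16283, peritubular 2043, stroma 4214, endothelium 309, macrophage 299, immediate-early 277 and reference 5218 TPM, and the other 9 did not. Below 5 CPM counting error is too large to read spread in single genes. No paired analysis was possible because only 1 group was described.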

Other observations

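Some genes outside the lists also had their lowest value in library 3 in the order of the meiotic genes. They were picked after their values were seen, from the protein-coding genes of largest CV beyond counting that were lowest there. Of the 1015 genes with a ratio of at least 1.5, 38.7% were lowest in library 3. Chrna4 had the largest CV by this rule but did not follow the order, at 4.802, 6.77, 17.6, 5.10 and 5.87 CPM. Prss50, a testis serine protease, was measured at 7.47, 17.5, 35.5, 38.4 and 30.7 CPM in libraries 3, 4, 5, 6 and 9. Dpep3, a membrane dipeptidase of the testis, was measured at 12.7, 23.3, 42.6, 46.2 and 36.4 CPM. The meiotic cyclin gene Ccnb3 was measured at 4.53, 8.60, 12.1, 17.1 and 12.7 CPM, the F-box gene Fbxo47 at 2.94, 5.45, 8.67, 10.0 and 6.46 CPM and the sphingolipid enzyme gene Ugt8a at 10.6, 16.4, 30.1, 33.7 and 25.5 CPM. Libraries 5, 6 and 9 lay above library 4, and library 4 above library 3, in these 5 genes. The X-linked genes Nxf3 (42.5, 71.8, 62.0, 54.7 and 132 CPM) and Pcsk1n (7.92, 11.7, 13.8, 17.0 and 24.2 CPM) were lowest in library 3 too, but highest in library 9.

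Some genes were nearly absent from single libraries. Zfp990, a zinc finger gene, had 37 counts in library 4 and 661 to 781 in the others. The noncoding gene Gm26825 had 807 counts in library 3, 444 in library 9 and 0 or 1 in the other 3. Rpl3-ps1, a processed pseudogene whose reads can come from its parent gene, had 421, 442 and 387 counts in libraries 3, 4 and 5, and 4 and 3 counts in libraries 6 and 9. Gm47283 on the Y chromosome had 1358 counts in library 3 and 50 to 111 in the others. The mice were of a mixed background, and the part of inherited sequence differences in these counts was not tested.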
